A study of Mus musculus with 16 samples.

Results

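Class II olfactory receptors encoded on mouse chromosome 7 were followed across sorted fractions of the olfactory mucosa. Members were chosen by name and position: an array feature assigned to chromosome 7 whose gene symbol is Olfr and a number, leaving out the ranges of numbers that the class I receptors of this chromosome carry, and Olfr2 and Olfr17. This gave 110 members among 1080 intact olfactory receptor genes and 19572 named features. All 110 have an entry in the RefSeq gene table of assembly GRCm38.p6, with a name in the MOR nomenclature, which numbers receptor families by sequence. In that nomenclature 106 members carry a class II family number, of 100 or above. The other 4, Olfr33 (MOR11), Olfr243 (MOR22), Olfr503 (MOR34) and Olfr504 (MOR40), carry class I numbers. They were kept under the rule. None of them was called, though Olfr33 passed in odor pools with the pool as a block (limma adjusted p = 0.00172).

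An olfactory receptor is a G protein-coupled receptor on the cilia of an olfactory sensory neuron (OSN), where odor binding opens a cation channel through the G protein Gnal and the adenylyl cyclase Adcy3. Each mature OSN expresses a single receptor gene from a single allele, so the mRNA of a receptor in a cell population follows how many neurons chose it and how much each of them makes. Class II receptors form most of the mouse repertoire. Class I receptors are related to those of fish, and their large cluster on chromosome 7 lies among the class II genes described here. In bulk RNA fewer cells of a type and less RNA per cell cannot be told apart.

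The 16 Clariom S arrays, 1-colour Affymetrix arrays that give a single summarized log2 signal per gene, came from 8 pools, each of 3 C57BL/6 mice with the S100a5-tauGFP reporter, males and females aged 7 to 12 weeks. In this reporter S100a5, a calcium-binding protein gene that OSN activity switches on, drives a fluorescent protein. All 24 mice spent 40 h in clean-air chambers at 3.1 L/min. After 26 h they received either a mixture of undecanal and bourgeonal, both aldehyde odorants (odor, 4 pools), or filtered air (vehicle, 4 pools), for 10 s every 20 min. Each pool was sorted into fluorescent and non-fluorescent cells, so that the fractions of each pool share their animals and each of 4 groups had 4 arrays. The titles name the fractions GFP− and GFP+, but the cell type entry of each of the 16 samples gives the opposite status. In each of the 8 pools S100a5 was higher in cells titled GFP−, by 0.71 to 2.43 log2 units, which goes against the titles. The titles are kept below, and every fraction difference is the log2 signal titled GFP− minus that titled GFP+.

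The libraries also differed in other cells. The mean log2 signal of 8 neutrophil markers was 5.01 to 6.19 over the titled GFP− arrays and 14.1 to 16.04 over the titled GFP+ arrays, and all 8 were called lower in titled GFP− in both treatments. In titled GFP− arrays 8 of these markers were above background on no vehicle array and 7 on no odor array. All 7 other leukocyte markers were called lower as well, with mean signals of 5.604 to 6.61 in titled GFP− and 10.4 to 12.4 in titled GFP+ arrays. Among 12 mature OSN markers 2 were called higher in vehicle and 4 in odor pools, with median differences of 0.22 and 0.19. Their mean log2 signals were 16.2 to 16.3 in titled GFP− and 15.8 to 16.1 in titled GFP+ arrays. Of these 12 markers 1 was above background on no array of both vehicle groups and of odor titled GFP−. Of 6 immature OSN markers 4 were called lower in titled GFP− in both treatments, with means of 10.0 to 10.6 against 12.3 to 12.8. Of 6 sustentacular markers 4 were called lower in vehicle and 5 in odor pools, with means of 6.82 to 8.12 against 9.24 to 10.1. These shifts accompany every fraction difference below, and their part in it was not tested. Some arrays stood apart from their groups. The median signal of the 110 members was 7.86 in the titled GFP+ array of odor pool 1, against 8.30 to 8.93 in the other titled GFP+ arrays. In the titled GFP− array of the same pool it was 9.12, against 9.50 to 9.70 in the other odor titled GFP− arrays. It was 8.89 in the titled GFP− array of vehicle pool 3, against 9.58 to 9.70 in the other vehicle titled GFP− arrays.

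Stretches of DNA just before 3 members are shown because their RefSeq gene models are long enough to hold an upstream exon, so that the window precedes the annotated transcription start, and because these genes differed strongly between the fractions. Receptor promoters are known for binding sites of Ebf factors and of LIM homeodomain factors such as Lhx2. The windows were searched on both strands for CCCNNGGG, the core of the Ebf motif, and for the homeodomain letters TAATTA and TAATGA (matches of the last 2 may overlap each other). Each line gives the 250 bases before the start (GRCm38.p6, 5′ to 3′ on the gene's strand), with matches in capitals. Olfr536 lies at chr7:140507319-140507568 (minus strand), Olfr695 at chr7:106716346-106716595 (minus strand) and Olfr701 at chr7:106813879-106814128 (plus strand).
Olfr536: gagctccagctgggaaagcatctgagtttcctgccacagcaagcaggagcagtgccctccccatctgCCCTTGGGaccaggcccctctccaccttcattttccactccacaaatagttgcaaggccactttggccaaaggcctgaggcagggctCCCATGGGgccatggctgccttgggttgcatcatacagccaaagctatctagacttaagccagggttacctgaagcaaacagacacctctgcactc
Olfr695: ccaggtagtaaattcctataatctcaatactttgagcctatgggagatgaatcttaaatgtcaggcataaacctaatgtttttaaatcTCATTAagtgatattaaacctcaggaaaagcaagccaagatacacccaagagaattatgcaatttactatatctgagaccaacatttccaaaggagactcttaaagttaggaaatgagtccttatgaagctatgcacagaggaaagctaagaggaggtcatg
Olfr701: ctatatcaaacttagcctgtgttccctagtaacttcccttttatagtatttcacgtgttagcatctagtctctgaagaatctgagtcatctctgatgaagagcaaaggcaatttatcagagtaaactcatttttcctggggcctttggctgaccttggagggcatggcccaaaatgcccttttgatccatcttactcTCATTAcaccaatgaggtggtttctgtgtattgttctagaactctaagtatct

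The Olfr536 window holds CCCNNGGG matches and no homeodomain match, while those of Olfr695 and Olfr701, both of family MOR283, hold TAATGA. Windows were found for 99 members, of which 5.05% held CCCNNGGG, 12.1% TAATTA and 19.2% TAATGA. Among the windows of 925 olfactory receptors of the genome these shares were 2.59%, 17.9% and 25.7%, and among all 32851 promoter windows 11.8%, 4.84% and 8.59%. The letters TATAAA, those of a TATA box, stood in 44.4% of member windows, 39.4% of receptor windows and 12.4% of all windows. Most members have RefSeq models of the coding part alone, so their windows need not lie at a promoter. A match is a description of the letters and not a site of binding.

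Levels were read against a background limit on each array, set at the 95th percentile of 23 background probe sets, which was 6.87 to 7.41 on the log2 scale. By this limit 54 members were above background on all 16 arrays, 82 on all 4 arrays of at least 1 group, and 16 on no array. Members above background on all 4 arrays of a group numbered 75 in vehicle titled GFP−, 69 in vehicle titled GFP+, 73 in odor titled GFP− and 59 in odor titled GFP+. A member below the limit on every array of a group has only an upper bound there. Its fold difference is then given as "at least", the bright group's mean over the mean background limit of the other group's arrays.

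In the vehicle pools, exposed to filtered air alone, most of the called receptors were higher in the fraction titled GFP−. The fit called 47 members higher (background 7.05% of all features) and 14 lower (background 9.82%), which is 42.7% and 12.7% of the 110. The median difference over the members was 0.78, against 0.13 over all features tested, and over the 54 members above background on all 16 arrays the differences ran from −5.39 for Olfr291 to 4.83 for Olfr536. Without vehicle pool 3, the pool with the low titled GFP− array, 45 were called higher and 11 lower. Calls are from limma's moderated test with Benjamini-Hochberg adjustment over all 19572 features at 0.05. The 4 arrays of the fractions did not overlap for 47 members in favour of titled GFP− (background 12.3%) and for 14 in favour of titled GFP+ (background 11.1%). For comparison, 23 of the 118 class I receptors of chromosome 7 were called higher and 20 lower, with a median of 0.27. Of the 852 other receptors 290 and 188 were called, with a median of 0.42. A difference between these groups of genes was not tested. The split of calls moved with the scaling. Centring each array on the median of named features gave 66 higher and 14 lower. That median is itself lower in titled GFP− arrays, at 6.76 to 6.84 against 7.10 to 7.32 in titled GFP+ arrays. Centring on the median of the receptors, which is itself higher in titled GFP− arrays, gave 40 and 15. These centrings moved the median of all features from 0.13 to 0.54 and −0.14, and that of the members from 0.78 to 1.18 and 0.51.

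In odor pools, other mice that had smelled the aldehyde mixture, the called receptors were again mostly higher in titled GFP−. The fit called 49 members higher (background 12.2%) and 14 lower (background 9.98%), with a median difference of 0.66 against 0.14 over all features. Of the 118 class I receptors of chromosome 7, 31 were called higher and 14 lower, with a median of 0.58. Of the 852 other receptors 326 and 176 were called, with a median of 0.53. Here too a difference between these groups of genes was not tested. The fractions did not overlap for 51 members in favour of titled GFP− (background 14.2%) and for 11 in favour of titled GFP+ (background 10.3%). Centring on the named features gave 62 higher and 13 lower, and centring on the receptors 42 and 20, with member medians of 0.96 and 0.19. Without odor pool 1, the pool with low arrays in both fractions and the largest S100a5 difference, 47 were called higher and 12 lower.

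**Figure D1:**
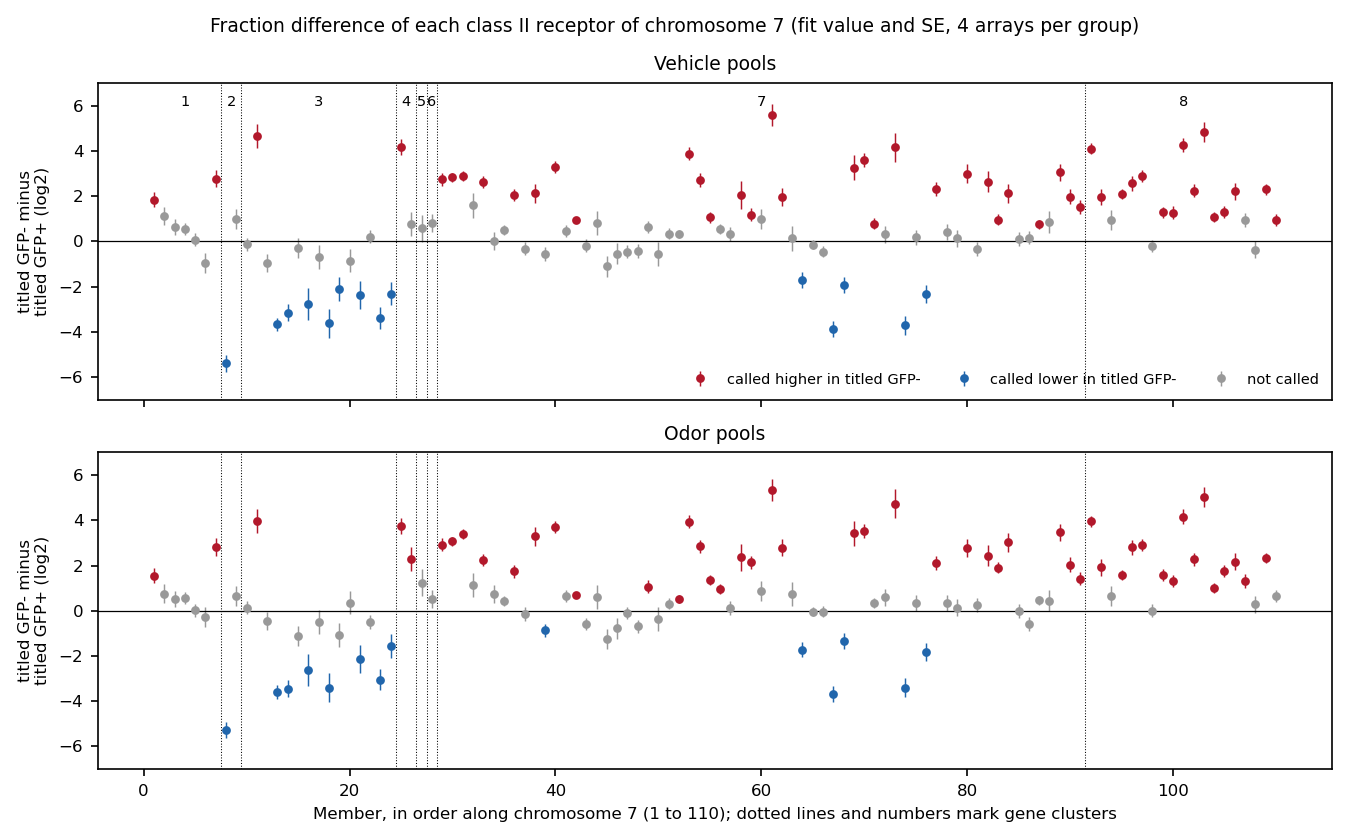
Fitted fraction difference (log2, titled GFP− minus titled GFP+, with its SE) of each of the 110 members, in their order along chromosome 7, in vehicle pools (top) and odor pools (bottom), 4 arrays per group. Red and blue points were called higher and lower, grey points were not called, and dotted lines part the 8 gene clusters; cluster 3 holds 8 of the 14 blue points in vehicle pools, and cluster 8 has red and grey points alone.

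The largest positive fitted differences came from receptors of several families. Olfr481, of family MOR204, had log2 signals of 10.2, 11.2, 10.6 and 10.7 in the vehicle titled GFP− arrays and 3.59, 5.85, 4.92 and 5.97 in the titled GFP+ arrays. In odor pools its signals were 9.59, 10.9, 10.9 and 10.2 against 4.09, 5.37, 4.77 and 5.93. It was above background on every titled GFP− array and on no titled GFP+ array. The fitted difference was 5.59 ± 0.48 (SE, limma adjusted p = 3.5e-07) in vehicle and 5.33 ± 0.48 (adjusted p = 6.1e-07) in odor pools. As a bound, Olfr481 was at least 12.2-fold higher in vehicle and at least 8.63-fold higher in odor pools.

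Olfr536, of family MOR252, whose upstream window is shown above, was bright in both fractions. Its vehicle signals were 14.08, 14.49, 14.98 and 14.53 in titled GFP− and 8.74, 9.96, 9.98 and 10.1 in titled GFP+ arrays. Its odor signals were 14.71, 14.29, 14.09 and 14.95 against 9.59, 9.11, 8.25 and 10.95. All titled GFP− arrays lay above all titled GFP+ arrays, and the fitted differences were 4.83 ± 0.44 (limma adjusted p = 6.2e-07) and 5.04 ± 0.44 (adjusted p = 4.2e-07). On the signal scale these are 28.4-fold and 32.8-fold.

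Olfr533, of the same family, was also bright and apart in the fractions. It had 14.8 ± 0.38 in titled GFP− against 10.5 ± 0.56 in titled GFP+ vehicle arrays (SD, n = 4), and 14.6 ± 0.41 against 10.5 ± 0.64 in odor arrays. Its differences were 4.27 ± 0.32 and 4.16 ± 0.32 (SE). Olfr530, the third MOR252 member, had −0.20 ± 0.27 and 0.01 ± 0.27 and was not called.

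Olfr309, of family MOR251, had signals in vehicle pools of 15.28, 15.52, 15.71 and 14.96 in titled GFP− arrays. Its titled GFP+ signals spread more, at 10.4, 11.0, 9.33 and 12.2. The difference was 4.64 ± 0.53 in vehicle and 3.96 ± 0.53 in odor pools (limma adjusted p of 7.7e-06 and 4.4e-05), and the fractions did not overlap. Olfr522, of family MOR103, reached 15.8 ± 0.30 in titled GFP− against 11.7 ± 0.42 in titled GFP+ vehicle arrays (SD, n = 4). Its differences of 4.09 ± 0.24 and 3.97 ± 0.24 (SE) had small errors.

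Olfr520 and Olfr494 were measured on one side alone in at least 1 treatment. Olfr520, of family MOR101, had 8.79, 9.57, 8.38 and 8.68 in vehicle titled GFP− arrays and 4.23, 4.35, 4.46 and 5.63, all below background, in titled GFP+ arrays. It was at least 3.46-fold higher in vehicle and at least 3.09-fold higher in odor pools, with fitted differences of 4.18 ± 0.36 and 3.75 ± 0.36 (limma adjusted p of 3.3e-07 and 1.1e-06). Olfr494, of family MOR204, had 10.4, 10.8, 9.82 and 9.60 against 4.24, 7.45, 6.61 and 5.72 in vehicle pools. Its odor pools gave a fitted difference of 4.74 ± 0.64, and it was there at least 7.16-fold higher in titled GFP−.

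Far fewer receptors went the other way, and Olfr291 led them. Olfr291, of family MOR254, had log2 signals of 7.23, 7.85, 7.55 and 9.22 in vehicle titled GFP− arrays and 13.1, 13.4, 13.2 and 13.7 in titled GFP+ arrays. Its odor signals were 7.93, 7.35, 8.75 and 8.61 against 13.3, 13.6, 13.1 and 13.9. The titled GFP+ arrays were all higher by a wide gap, and the receptor was above background on every array. The fit gave −5.39 ± 0.37 in vehicle and −5.28 ± 0.37 in odor pools (limma adjusted p of 2.6e-08 and 3.4e-08), or 42.0-fold and 38.7-fold higher in titled GFP+. Its neighbour and only family mate here, Olfr290, had 0.97 ± 0.44 and 0.66 ± 0.44 and was not called, though it passed in vehicle pools with the pool as a block (limma adjusted p = 0.0167).

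Olfr487 and Olfr495, of family MOR204, were measured above background in titled GFP+ arrays alone. Olfr487 had 5.88, 6.02, 4.77 and 5.19 in vehicle titled GFP− and 9.30, 9.23, 8.81 and 10.0 in titled GFP+ arrays, without overlap. It was at least 4.46-fold higher in titled GFP+ in vehicle and at least 5.01-fold in odor pools (fitted differences −3.87 ± 0.35 and −3.67 ± 0.35). Olfr495 had 4.71, 4.38, 4.99 and 4.75 against 8.07, 8.30, 7.67 and 9.66 in vehicle pools. The bound was at least 2.37-fold in vehicle and, with 3 of 4 titled GFP+ arrays above background, at least 1.52-fold in odor pools.

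Other low receptors lie in the cluster that runs from Olfr310 to Olfr292. Olfr307, of family MOR219, had 4.99, 4.51, 4.45 and 4.63 in vehicle titled GFP− arrays and 8.49, 7.84, 8.01 and 8.95 in titled GFP+ arrays. It was at least 2.21-fold higher in titled GFP+ in vehicle and at least 1.61-fold in odor pools (fitted −3.68 ± 0.30 and −3.60 ± 0.30). Olfr305, next to it and of the same family, was at least 2.43-fold and at least 2.40-fold higher in titled GFP+ arrays. Olfr299 and Olfr293, the MOR221 members, had fitted differences of −3.63 ± 0.64 and −3.39 ± 0.47 in vehicle and −3.40 ± 0.64 and −3.05 ± 0.47 in odor pools. Olfr299 was at least 2.66-fold higher in titled GFP+ in vehicle pools, and Olfr293, with 3 of 4 titled GFP+ arrays above background, at least 1.26-fold. In odor pools Olfr299, with 3 of 4 titled GFP+ arrays above background, was at least 1.90-fold higher. Olfr293 had no bound there, as its titled GFP+ mean of 6.90 lay below the mean limit of 7.24. Olfr487, Olfr495, Olfr307, Olfr305, Olfr299 and Olfr293 had titled GFP+ group means of 6.90 to 9.56.

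**Figure D2:**
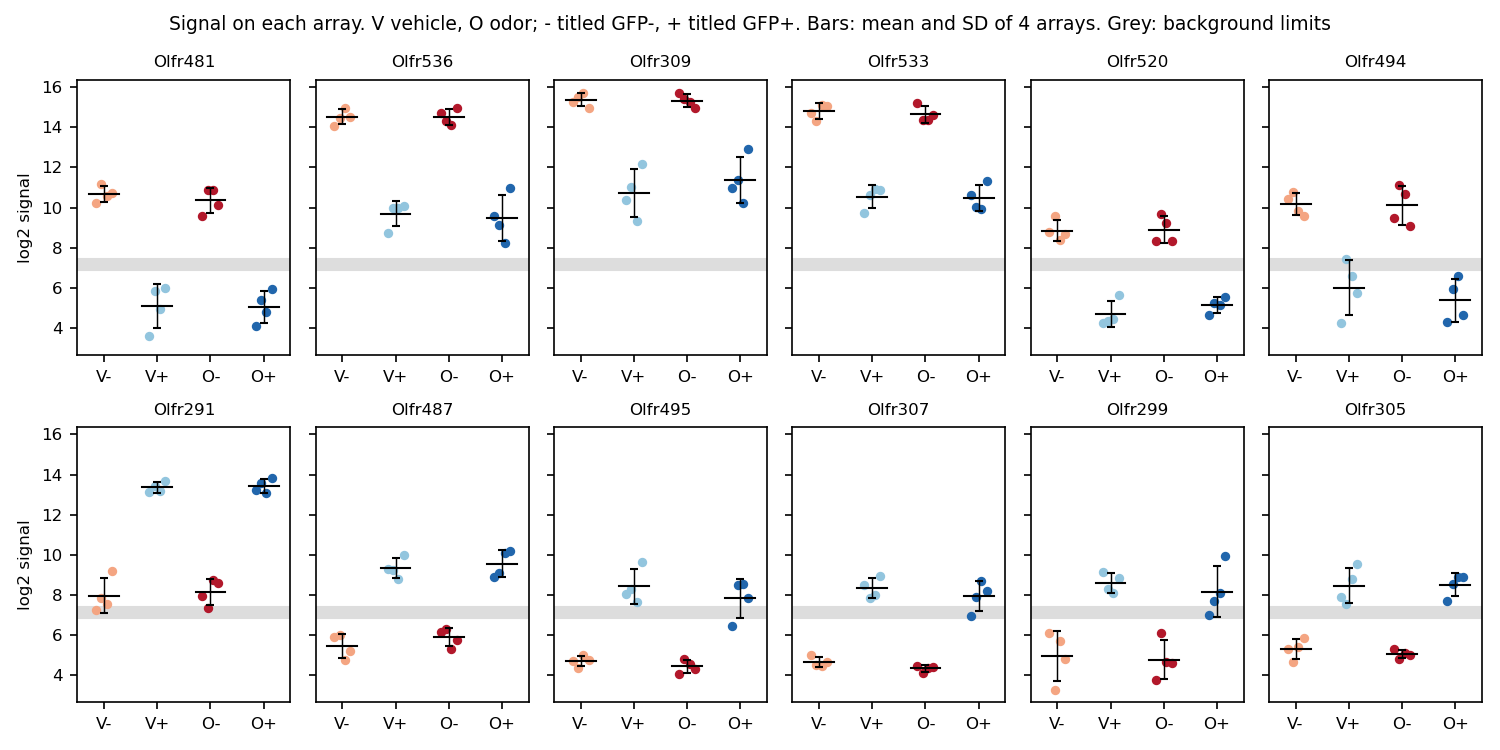
Log2 signal on each of the 16 arrays for 12 members with the largest differences, by group (V vehicle, O odor; − titled GFP−, + titled GFP+), with the mean and SD of 4 arrays. The grey band spans the background limits of 6.87 to 7.41; the receptors in the top row were higher in titled GFP− and those in the bottom row in titled GFP+, and several of them lie below the band in the other fraction.

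At the edge of the threshold the calls were weak. In vehicle pools the last member called was Olfr478 (2.04 ± 0.62, limma adjusted p = 0.031), and the first not called was Olfr53 (0.93 ± 0.31, adjusted p = 0.0515). The call of Olfr478 was lost without any one of the 4 vehicle pools, where the adjusted p was 0.0527 to 0.11. In odor pools the last called was Olfr704 (−0.86 ± 0.29, adjusted p = 0.0417), whose adjusted p was 0.0503 to 0.152 without any one odor pool and 0.0571 without vehicle pool 3. The first not called was Olfr711 (−1.24 ± 0.45, adjusted p = 0.0596), which passed without odor pool 4 (adjusted p = 0.0306) and without vehicle pool 4 (adjusted p = 0.0331). When pools entered as a block, Olfr53 passed in vehicle pools (limma adjusted p = 0.0341) and Olfr711 in odor pools (limma adjusted p = 0.0477). Of the 47 and 14 vehicle calls, 41 and 11 were made again in each of the 8 fits that left out a pool, and of the 49 and 14 odor calls, 46 and 9. No called member changed sign in any of these fits.

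The vehicle and odor pools held different mice and no array in common, so their fraction differences can be set side by side. Both tests use the same error estimate for each gene, so their calls are not independent. Of the members called higher in vehicle pools, 44 (93.6%) were also called higher in odor pools, which is 89.8% of the odor list (background 4.24% of all features called higher in both). Over all features, those called higher in both were 60.1% of the vehicle list and 34.8% of the odor list. Of those called lower, 13 were called in both, 92.9% of each list (background 8.3%), against 84.5% and 83.2% of the lists over all features. No member was called in opposite directions, and 43 were called in neither. Over the 110 members the differences of both treatments correlated at r = 0.978 (Spearman rho 0.967), as they did over all features (r = 0.955); these points share the array, the probes and the sort. In single pools, 52 members were higher in titled GFP− in all 8, 12 were lower in all 8, and 46 were mixed. The shares over all features were not computed for these counts, so they are a description and not a trait of the members.

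**Figure D3:**
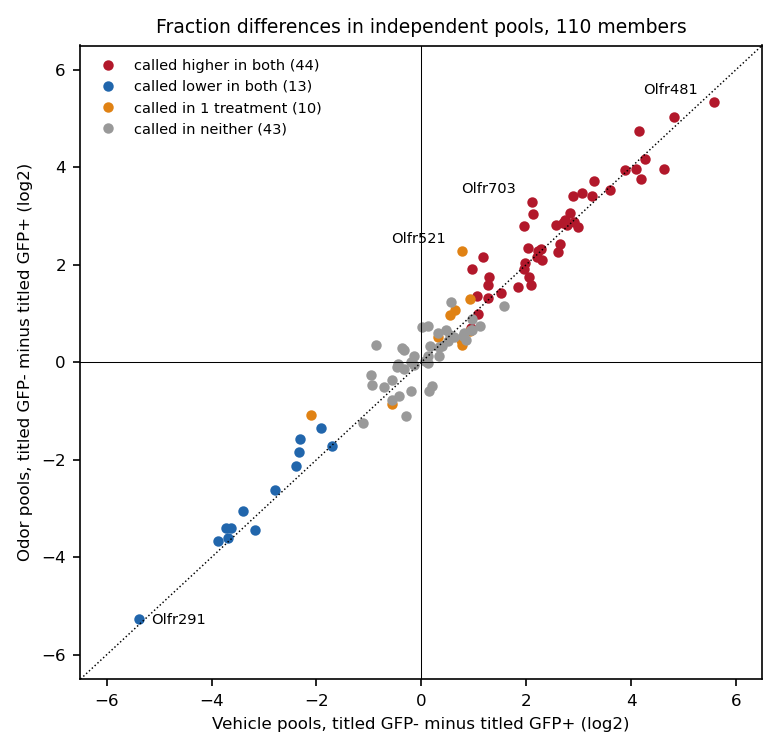
Fraction difference in odor pools against that in vehicle pools (both log2, titled GFP− minus titled GFP+) for the 110 members, coloured by call, with the line of equality dotted. The 44 members called higher in both and the 13 called lower in both follow the line, and Olfr521 and Olfr703 lie above it without a called difference between treatments.

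For none of the 10 members called in a single treatment did the difference between treatments pass. Olfr298, Olfr492, Olfr514 and Olfr541 were called in vehicle pools alone. Olfr298 was called in odor pools too without odor pool 3, and Olfr541 without odor pool 4 (limma adjusted p of 0.00536 and 0.0233). Several of the vehicle calls were lost when a pool was left out. That of Olfr492 was lost without vehicle pool 1 or 2 (adjusted p of up to 0.154), Olfr514 without pool 1 or 4 (up to 0.121), and Olfr541 without pool 1, 2 or 3 (up to 0.124). Olfr521, Olfr704, Olfr716, Olfr470, Olfr476 and Olfr53 were called in odor pools alone. Here Olfr716 was lost without odor pool 1 or 4 (up to 0.0667) and Olfr470 without any one odor pool (up to 0.149). With the pool as a block Olfr716 and Olfr53 passed in vehicle pools too (limma adjusted p of 0.0236 and 0.0341), so that they were then called in both treatments. Olfr521, of family MOR101, had the largest change between treatments. Its vehicle signals were 8.16, 8.92, 8.69 and 8.42 in titled GFP− and 7.13, 7.83, 7.28 and 8.87 in titled GFP+ arrays, so that the fractions overlapped. In odor pools it had 8.15, 10.0, 9.04 and 8.72 against 4.80, 7.05, 7.32 and 7.63, without overlap. The fraction differences were 0.77 ± 0.54 and 2.28 ± 0.54, and the interval of the change between them included 0.

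Members lie in 8 clusters when a gap of more than 1 Mb between neighbours parts them. The distal cluster, from Olfr522 to Olfr541, held 19 members, of which 15 were called higher and none lower in vehicle pools and the same numbers in odor pools (background 7.05% and 12.2% of all features called higher). Its median difference was 1.96 in vehicle and 1.75 in odor pools. Families MOR251, MOR252 and MOR253 made up 16 of the 19, with 13 called higher in each treatment. Among them Olfr60 had 2.91 ± 0.26, Olfr527 had 2.57 ± 0.33 and Olfr45 had 2.29 ± 0.22 in vehicle pools, while Olfr539 had −0.37 ± 0.38 and did not pass.

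In the cluster from Olfr310 to Olfr292 the balance was the reverse. Of its 15 members 1, Olfr309, was called higher, and 8 were called lower in vehicle and 7 in odor pools, with median differences of −2.11 and −1.10 (background 9.82% and 9.98% of all features called lower). The 10 members of families MOR219, MOR220 and MOR221 gave 7 lower calls in vehicle and 6 in odor pools and none higher. Olfr309 belongs to MOR251, the family whose other 4 members here lie in the distal cluster, and all 5 were called higher in both treatments, though Olfr532 missed the threshold in odor pools after centring on the receptors (adjusted p = 0.0555). Some of the lower calls here were lost when a pool was left out. In vehicle pools the call of Olfr303 was lost without vehicle pool 1, 2 or 3 (adjusted p of up to 0.0974), that of Olfr295 without pool 2 or 3 (up to 0.0743) and that of Olfr292 without pool 3 (0.0587). In odor pools Olfr303 was lost without odor pool 2 (adjusted p = 0.0519), Olfr295 without odor pool 1, 2 or 3 (up to 0.0916) and Olfr292 without odor pool 2, 3 or 4 or vehicle pool 4 (up to 0.188). The odor call of Olfr292 was also lost with the pool as a block (limma adjusted p = 0.0634).

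The long cluster from Olfr693 to Olfr519 held 63 members, with 28 called higher and 5 lower in vehicle and 29 and 6 in odor pools. The higher calls were 44.4% and 46.0% of the cluster (background 7.05% and 12.2%). The lower calls were 7.94% and 9.52% of it, below the background of 9.82% and 9.98%. At its proximal end lie the 12 members of MOR283, of which 7 were called higher in each treatment. Olfr695, whose upstream window is shown above, had 13.8, 14.2, 13.5 and 14.1 in vehicle titled GFP− and 11.2, 10.5, 10.8 and 11.6 in titled GFP+ arrays, a difference of 2.89 ± 0.22 (limma adjusted p = 9.2e-08). In odor pools its difference was 3.41 ± 0.22. Its neighbours Olfr693 and Olfr694 had 2.73 ± 0.27 and 2.84 ± 0.20 in vehicle pools, and Olfr705 had 3.29 ± 0.27. Olfr701, the other member with a printed window, had 2.06 ± 0.28 in vehicle and 1.75 ± 0.28 in odor pools and lay below background in every titled GFP+ array. The remaining MOR283 members, Olfr697, Olfr699, Olfr700 and Olfr706, had 0.02 to 1.59 in vehicle pools and were not called, and Olfr704 had −0.56 ± 0.29. With the pool as a block Olfr697 passed in both treatments (limma adjusted p of 0.000101 and 0.000902) and Olfr706 in odor pools (limma adjusted p = 0.0195).

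MOR204, with 31 members the largest family, lay wholly in this cluster and was split. In vehicle pools 14 of its members were called higher and 5 lower (background 7.05% and 9.82% of all features). In odor pools 15 and 5 were called (background 12.2% and 9.98%). The medians were 0.55 and 0.74. Centring on the named features gave medians of 0.95 and 1.04, and centring on the receptors 0.28 and 0.28. Among its 11 members above background on all arrays the vehicle differences ran from −1.92 for Olfr488 to 3.88 for Olfr472, and the fitted differences of Olfr487 and Olfr481, with the bounds given above, were the lowest and the highest of the family. The 5 low members were Olfr484, Olfr487, Olfr488, Olfr495 and Olfr498. The call of Olfr488 in odor pools was lost without odor pool 3 or 4, with an adjusted p of up to 0.077. Over the chromosome there were 102 pairs of neighbouring members. Both members were called in vehicle pools in 30 pairs, both higher in 23, both lower in 4 and in opposite directions in 3. All 3 opposite pairs were MOR204 neighbours: Olfr488 with Olfr490, Olfr494 with Olfr495, and Olfr498 with Olfr502. In the widest of them, Olfr494 had 4.15 ± 0.64 and Olfr495 −3.72 ± 0.43. In Olfr490, the titled GFP− signals were 10.0, 10.6, 10.0 and 10.8 and the titled GFP+ signals 6.22, 8.19, 5.83 and 8.19 in vehicle pools. Next to it Olfr488 had 12.6, 12.8, 12.6 and 13.1 against 14.1, 14.8, 14.2 and 15.6, so that each receptor's fractions were apart in opposite directions on the same arrays. Probes of closely related receptors may share signal, and sequence identity between members was not analysed here.

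**Figure D4:**
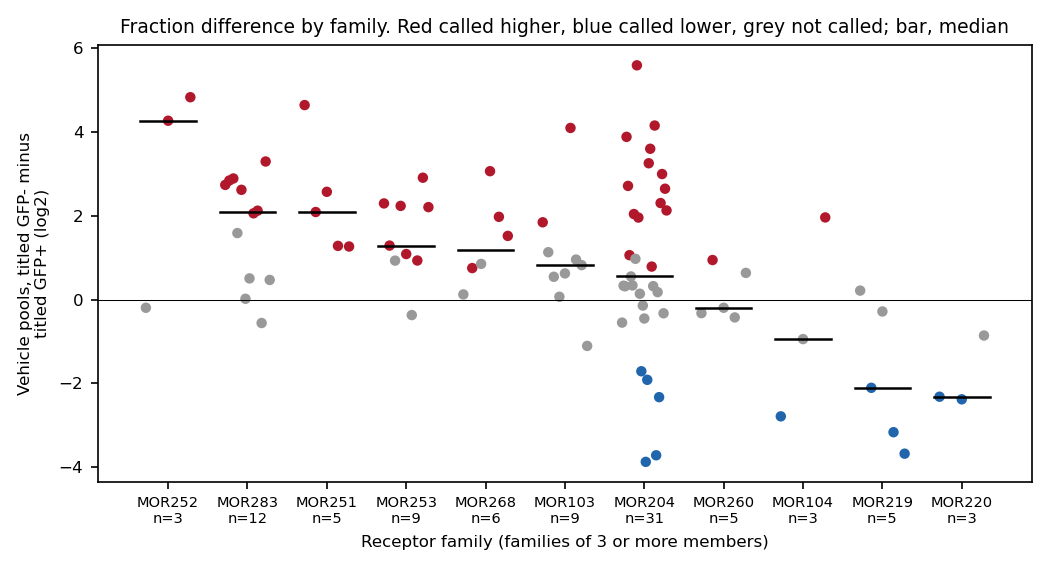
Fraction difference in vehicle pools (log2, titled GFP− minus titled GFP+) of the members of each MOR family with at least 3 members, with the family median as a bar and the call as colour. MOR251 has called-higher points alone, MOR219 and MOR220 have called-lower and uncalled points, and MOR204 has points of all 3 colours, of which the outermost, Olfr487 and Olfr481, are fitted values against a level below background.

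Smaller families filled the range between. MOR253 had 7 of 9 members called higher in each treatment, MOR268 4 of 6 in vehicle and 3 of 6 in odor pools, and MOR103 2 of 9 in each. For these and the counts below, the background is 7.05% of all features called higher in vehicle and 12.2% in odor pools. The 5 members of MOR260 gave 1 higher call in vehicle and 2 in odor pools, with medians of −0.20 and −0.14 that turn to 0.21 and 0.16 after centring on the named features. The proximal cluster from Olfr1336 to Olfr1350, mostly MOR103, held 7 members, of which 2 were called higher in each treatment. With the pool as a block Olfr1347 passed as well in both (limma adjusted p of 0.0381 and 0.0283), and in vehicle pools Olfr1346 passed and Olfr1349, which was lower in titled GFP− (limma adjusted p of 0.0145 and 0.0246). Olfr1350, of family MOR222, led it with 2.78 in vehicle and 2.81 in odor pools.

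Whether smelling the aldehydes changed the fraction difference of a receptor is the comparison that the reporter sort addresses. No member passed the test of this interaction, as no feature of the table did (0 of 110 and 0 of 19572 by limma, background 0%). At an unadjusted p under 0.05 there were 2 members, against 739 features (3.78%). Both were the MOR267 members. Olfr509 had fraction differences of 0.96 ± 0.26 in vehicle and 1.91 ± 0.26 in odor pools, a change of 0.95 with a 95% interval from 0.18 to 1.72 (limma adjusted p = 0.9997). Olfr479 went from 1.18 ± 0.29 to 2.15 ± 0.29, a change of 0.97 with an interval from 0.11 to 1.83 (limma adjusted p = 0.9997). These receptors have a family in common, and whether their probes share signal was not tested.

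The signals behind these changes were modest. Olfr479 had 9.75, 9.53, 8.71 and 9.50 in vehicle titled GFP− and 10.2, 10.0, 9.88 and 9.62 in odor titled GFP− arrays. Its titled GFP+ signals were 7.92, 8.43, 8.82 and 7.59 with vehicle and 7.44, 7.97, 8.35 and 7.34 with odor. The groups overlapped between treatments in both fractions. In vehicle pools the call of Olfr479 was lost without vehicle pool 1 or 4 (adjusted p of up to 0.0851), and that of Olfr509 without vehicle pool 2 or 4 (up to 0.102). The next smallest p was that of Olfr521, with a change of 1.51 and an interval from −0.10 to 3.13 (limma adjusted p = 0.9997).

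In the main fit, which does not pair the fractions of a pool, the changes were bounded only loosely. Intervals with the pool as a block were not computed. The 95% interval of the interaction reached, at the median, 1.00 log2 unit to each side of the estimate. For 21 of 110 members the interval lay within 1 log2 unit of 0 in both directions, and for 93 within 2. For the receptors with the largest fitted fraction differences, the interval ran from −1.70 to 1.19 for Olfr481, from −1.10 to 1.52 for Olfr536 and from −0.99 to 1.22 for Olfr291.

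**Figure D5:**
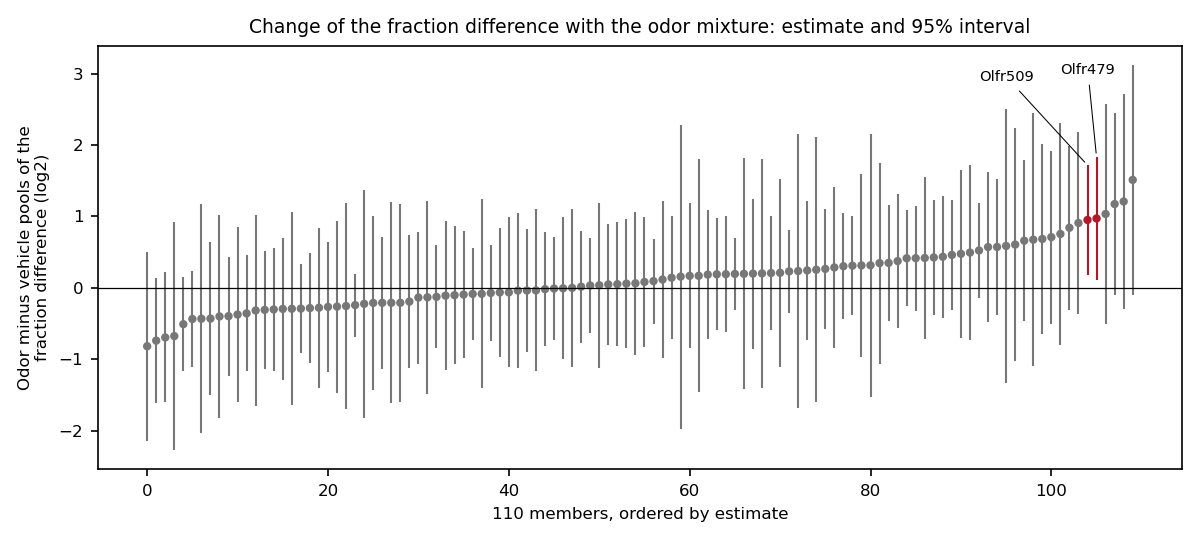
Change of the fraction difference between odor and vehicle pools (log2) for each of the 110 members, ordered by estimate, with the 95% interval of the fit. The intervals of Olfr509 and Olfr479, in red, are the only ones that leave out 0, and neither passed after adjustment.

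Odor against vehicle within a fraction gave no calls either. In titled GFP− arrays 0 of 110 members and 0 of 19572 features passed limma's test (background 0%), with 1 member and 805 features (4.11%) at an unadjusted p under 0.05. The smallest p values belonged to Olfr5, Olfr294 and Olfr479 (adjusted p = 0.999). Olfr5, of family MOR103, had 7.90, 8.09, 7.68 and 8.02 with vehicle and 7.55, 6.80, 6.27 and 8.11 with odor, and these overlapped. Olfr294 lay below background on all 16 arrays.

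In titled GFP+ arrays 0 of 110 members and 0 of 19572 features passed as well (background 0%), with 4 members and 2016 features (10.3%) at an unadjusted p under 0.05. Olfr470, of family MOR204, had 8.71, 8.42, 8.74 and 8.28 with vehicle and 7.995, 7.876, 7.999 and 8.239 with odor, without overlap, a difference of −0.51 ± 0.17 (limma adjusted p = 0.358). Olfr703 had 7.98, 8.57, 7.43 and 8.47 against 5.66, 7.20, 7.93 and 6.77, a difference of −1.22 ± 0.42 (adjusted p = 0.378). Olfr482 had 8.62, 8.75, 8.32 and 9.41 against 7.54, 8.21, 6.98 and 8.32, which just overlap, and a difference of −1.01 ± 0.38 (adjusted p = 0.394). In this fraction 77 of 110 differences were below 0, with a median of −0.15 that turns to 0.12 after centring on the receptors. Differences were also below 0 for 97 of 118 class I receptors of chromosome 7 and 654 of 852 other receptors (medians −0.26 and −0.22). Over all features 10643 of 19572 were below 0, with a median of −0.03. The low array of odor pool 1 is among those averaged.

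The genes around receptor choice and trafficking moved little. Of 16 listed genes none was called in vehicle pools. In odor pools 2 of 16 were called higher in titled GFP−, a share near the background of 12.2% of all features. They were Adcy3, the cyclase of odor transduction, at 0.30 ± 0.10, and Rtp2, a chaperone that carries receptors to the cell surface, at 0.37 ± 0.13 (limma adjusted p of 0.0399 and 0.0449). Their vehicle differences were 0.24 ± 0.10 and 0.37 ± 0.13 and did not pass. Lhx2, a homeodomain factor of receptor choice, had −0.06 ± 0.12 in vehicle and 0.00 ± 0.12 in odor pools. All 5 activity-dependent OSN genes, S100a5 among them, were called higher in titled GFP− in both treatments, with medians of 1.23 and 1.31, and none of them passed the interaction.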

How the data were processed

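The values were read as log2 array signals from the table the authors deposited, made with Affymetrix Expression Console per the submitters' processing notes. The unit was read from the values (1.77 to 19.3), and the sources used here give neither normalization nor genome build. Gene names came from the platform annotation, and receptor families and gene order from RefSeq (GRCm38.p6). Of 28846 rows, 19572 named features were tested with a limma cell-means model over 4 groups of 4 arrays (limma 3.58.1, R 4.3.3; moderated two-sided tests, Benjamini-Hochberg, 0.05), tested on simulated data. Depth has no counterpart in arrays: their number limits the precision. SE values are the fit's, and SD is over 4 arrays of separate pools.

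Members, lists and the rule for named genes were chosen with earlier results of these data known. The rule took the 6 highest and 6 lowest called members per fraction comparison, the 3 smallest p where fewer than 3 passed, and the members next to the threshold; others named in cluster and family accounts were chosen after their values were seen. Fractions of a pool share animals; their deviations from the group means correlated at 0.0957 to 0.337 over all features. Alternatives were quantile normalization, 2 centrings, a background filter, the replicate block and leaving out each pool.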

Additional observations from a re-analysis of the deposited data

Results flagged for a closer look

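Among 104 groups of 4 arrays (26 named members in 4 groups each), 5 held an array whose gap to the nearest other array exceeded Dixon's 95% critical share of the group's range, and chance gives about 1 in 20. Olfr536 was 8.74 in the titled GFP+ array of vehicle pool 1, against 9.96 to 10.1 in the other vehicle titled GFP+ arrays. Olfr520 was 5.63 in the titled GFP+ array of vehicle pool 4, against 4.23 to 4.46, all below background. Olfr53 was 12.9 in the titled GFP− array of vehicle pool 4, against 11.8 to 11.9. Olfr5 was 5.83 in the titled GFP+ array of odor pool 3, against 6.90 to 7.00. Olfr294 was 4.59 in the titled GFP+ array of odor pool 2, against 3.16 to 3.37, all below background.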

How the results depend on the processing

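The counts of members called in each fraction comparison stayed within 1.5 times the reported ones under each of the 13 alternatives. With a pool left out, vehicle calls were 42 to 49 higher and 11 to 16 lower, and odor calls 47 to 49 higher and 10 to 14 lower. With the pool as a replicate block, 53 were called higher and 15 lower in each treatment. Quantile normalization gave 50 and 14 in vehicle and 51 and 14 in odor pools. Among the 82 members above background on all arrays of at least 1 group, 43 and 10 were called in vehicle and 46 and 12 in odor pools. A member can pass this filter through the group where it is high alone, so these counts are no separate support. In odor pools the centrings shifted the median of all features from 0.14 to 0.44 and −0.33; calls under them stand beside the main counts. The interaction and both odor comparisons gave 0 calls under all alternatives, the block by replicate number included. For the members named by the rule, each in the comparison that named it, 456 recomputed values kept direction and call; 11 lost and 11 gained a call, at Olfr478, Olfr53, Olfr704 and Olfr711, and none reversed. Other members whose calls moved are named above only in part. After centring on the receptors, Olfr707 lost its call in vehicle and odor pools (limma adjusted p of 0.187 and 0.615), as did Olfr538 (0.0725 and 0.233). Olfr474 lost it in vehicle pools (0.0714) and Olfr1336 in odor pools (0.116). Without vehicle pool 4, Olfr308, Olfr700 and Olfr480 gained a vehicle call (limma adjusted p of 0.038, 0.0361 and 0.0338). Calls at the dim end are bounded by background: 3 vehicle calls and 1 odor call rest on members below it in both fractions.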
